A study of Homo sapiens with 6 samples.

Results

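The SRPK and CLK families are the main kinases of the SR proteins, the splicing factors that carry long runs of arginine-serine dipeptides (RS domains). They were read on the arrays through every probe whose platform annotation names SRPK1, SRPK2, SRPK3, CLK1, CLK2, CLK3 or CLK4. This gave 10 probes of 47231 in all, for 6 of the 7 genes (of 20046 genes with a named probe), of which 9 probes passed the filter on detection (a detection p under 0.05 on at least 3 of the 6 arrays). CLK2 was not analysed here because no probe is listed under its symbol. SRPK3 was chosen by its measured values on these arrays, as the leading gene of a separation of the arrays that does not follow the transduction. Its level is therefore a description without a test, and the other genes were added as its relatives.

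Total RNA came from HEK-293T cells, which derive from human embryonic kidney, and was read on Illumina HT-12 v4 BeadChips. The cells had been transduced with RUNX1 lentivirus (3 arrays) or with a lentivirus carrying only the multiple cloning sites (MCS, 3 arrays). Both groups were transduced at 10 MOI, selected with 1 µg/ml puromycin and harvested 7 days after transduction. RUNX1 is a blood transcription factor, and the study took this kidney-derived line as one without RUNX1 of its own, so the cells are not of the lineage in which the factor acts. The study calls its array values biological triplicates, and no chip or scan batch was given in the sources used here.

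SRPK1 and SRPK2 work mostly in the cytoplasm, where they phosphorylate the RS domains of SR proteins so that the import receptor transportin 3 (TNPO3) can carry these into the nucleus. The CLK kinases are nuclear, phosphorylate the same domains further and release SR proteins from the speckles that store them. CLK transcripts are themselves spliced in response to CLK activity, since part of the CLK1 RNA is kept in the nucleus with introns retained. SRPK3 is the muscle member of its family, and in mouse muscle its gene is a target of the transcription factor MEF2.

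Between 18096 and 19321 probes were detected on the RUNX1 arrays and between 18405 and 19080 on the MCS arrays. As a check of the transduced gene, 0 of the 9 signals of its 3 probes on RUNX1 arrays were detected, and 1 of 18 over all 6 arrays was, on MCS replicate 3, so these probes do not check the labels. Where they lie against the transduced sequence was not analysed here. The line's markers vimentin, LIN28B, neurofilaments and keratins were detected on all 6 arrays (8 of 11 probes, 6 of 7 genes). PAX2 was not detected on any array, nor were PTPRC and LYZ among the monocyte genes. Of 14 probes of monocyte genes, 7 passed the filter, of CD14, CD68, CSF1R and FCGR3A. CD14 ILMN_2396444 was detected on all 6 arrays, at intensities of 156 to 209. RUNX1 replicates 1 and 2 and MCS replicate 1 stood apart from RUNX1 replicate 3 and MCS replicates 2 and 3. The groups are named here by their labels. If the labels of RUNX1 replicate 3 and MCS replicate 1 were exchanged, this order would be the transduction contrast, which no value here checks, and every RUNX1-minus-MCS value below and the absence of calls rest on the labels as given. Of the 18867 probes that passed the filter, 21.5% were higher on RUNX1 replicates 1 and 2 and MCS replicate 1 than on every one of the other 3 arrays, and 19.5% were lower. The share of probes detected moved with this order, at 40.9%, 39.8% and 38.3% on RUNX1 replicates 1 to 3 and 40.4%, 39.6% and 39.0% on MCS replicates 1 to 3, and its part in the results was not tested. Less RNA per cell and fewer cells with the RNA cannot be told apart in such bulk samples.

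The promoters of the genes on which the results turn are shown first, as the 250 bases before the annotated start in RefSeq (GRCh38.p14), because SRPK3 and the CLK genes lay on opposite sides of that order of arrays. All 7 genes matched the RefSeq table by symbol. Where a gene had several starts, the window with the most CpG dinucleotides is printed. Capitals mark the MEF2 motif and CANNTG, the E-box, in SRPK3, and TGACG, the core of the cAMP response element, on either strand in the CLK genes.
SRPK3, chrX:153780791-153781040, plus strand: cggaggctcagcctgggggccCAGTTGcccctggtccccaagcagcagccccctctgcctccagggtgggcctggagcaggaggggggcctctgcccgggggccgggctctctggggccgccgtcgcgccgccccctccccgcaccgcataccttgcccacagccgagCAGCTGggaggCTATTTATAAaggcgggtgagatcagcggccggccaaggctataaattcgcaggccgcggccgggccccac
CLK1, chr2:200864562-200864811, minus strand: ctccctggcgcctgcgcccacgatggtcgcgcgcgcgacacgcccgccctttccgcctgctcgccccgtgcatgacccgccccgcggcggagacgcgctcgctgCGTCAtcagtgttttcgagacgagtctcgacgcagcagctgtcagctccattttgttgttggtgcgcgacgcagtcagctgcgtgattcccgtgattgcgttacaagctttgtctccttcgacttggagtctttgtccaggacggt
CLK3, chr15:74615586-74615835, plus strand: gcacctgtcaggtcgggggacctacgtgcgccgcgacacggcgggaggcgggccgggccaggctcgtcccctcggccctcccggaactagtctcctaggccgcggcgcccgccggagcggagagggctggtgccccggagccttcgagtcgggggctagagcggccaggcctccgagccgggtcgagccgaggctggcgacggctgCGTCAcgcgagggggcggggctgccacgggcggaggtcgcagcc
CLK4, chr5:178627051-178627300, minus strand: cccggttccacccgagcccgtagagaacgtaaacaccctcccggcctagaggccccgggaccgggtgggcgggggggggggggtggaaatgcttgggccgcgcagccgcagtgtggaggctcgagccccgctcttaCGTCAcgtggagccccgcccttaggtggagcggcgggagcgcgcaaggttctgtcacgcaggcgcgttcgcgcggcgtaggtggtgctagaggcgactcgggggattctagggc

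SRPK3 was the only one of the 7 genes with a MEF2 motif in these windows, 71 bases before its start, which 2.8% of the 35116 promoter windows of this length held. Its CANNTG matches, the motif of myogenic factors such as MYOD1, lay 229 and 82 bases before the start, and 61.8% of windows held one. Every window of the 7 genes held a CANNTG match. In the CLK1 window printed, CAGCTG, the letters of the SRPK3 match at 82, lies 111 and 71 bases before the start. TATAAA, the TATA box, was found 68, 66 and 31 bases before the start of SRPK3 (10.7% of windows). The matches at 68 and 66 overlap the MEF2 motif. TGNGGT, the letters of the RUNX motif, was matched in SRPK3 on the opposite strand at 107 bases (37.7% of windows). SRPK2 held it 205 and 108 bases before 1 of its 4 starts. In the CLK windows printed, TGACG lay 146 bases before the start of CLK1, 44 before that of CLK3 and 114 before that of CLK4, where it overlaps a CANNTG match at 111. It was in 21.2% of windows. Of the CLK windows not printed, that of CLK3 held no TGACG and that of CLK1 held it 49 bases before the start. In the rest of the family TGACG was found in 1 of 4 windows of SRPK2, and not in those of SRPK1 and CLK2. GAANNTTC, the core of the heat shock element, was in no window of the 7 genes and in 5.78% of all windows. The SRPK3 window held 18 CpGs and those of CLK1, CLK3 and CLK4 held 33, 35 and 29, where the median of all windows was 11. These matches are a description of letters and do not show that a factor binds there. Both strands were searched, and the motifs were chosen after the sequences were seen.

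SRPK3, the muscle SR protein kinase, was either well above background or not detected. Its single probe, ILMN_1697338, had intensities of 626, 579 and 83.3 on RUNX1 replicates 1 to 3, against 609.5, 63.0 and 91.2 on MCS replicates 1 to 3. It was detected on RUNX1 replicates 1 and 2 and MCS replicate 1, and its detection p was 0.839 on RUNX1 replicate 3, 0.994 on MCS replicate 2 and 0.638 on MCS replicate 3. Each group thus held arrays on which the probe was above background and arrays on which it was not. The expression values, on a log2 scale after background correction and quantile normalization, were 9.03, 9.09 and 4.61 with RUNX1 and 8.92, 4.46 and 4.76 with MCS. The 3 detected values lie within 0.18 of each other, with a gap of 4.16 to the highest of the 3 values not above background. The group means were 7.58 ± 2.57 with RUNX1 and 6.05 ± 2.49 with MCS (SD, n = 3 each), a log2 difference of 1.53 that rests on there being 2 high arrays in one group and 1 in the other. Without RUNX1 replicate 3 it was 3.02, without MCS replicate 1 it was 2.97, and without any other single array it was 0.74 to 0.89. Over the 6 arrays the probe spanned 4.63 on the log2 scale, which restates why SRPK3 was chosen. Its low end lies below detection, so that the gap and the span depend on the background step. Over 7 other scalings the gap ran from 2.28 (the authors' processed values) to 4.23 and the span from 2.75 to 4.97.

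**Figure D1:**
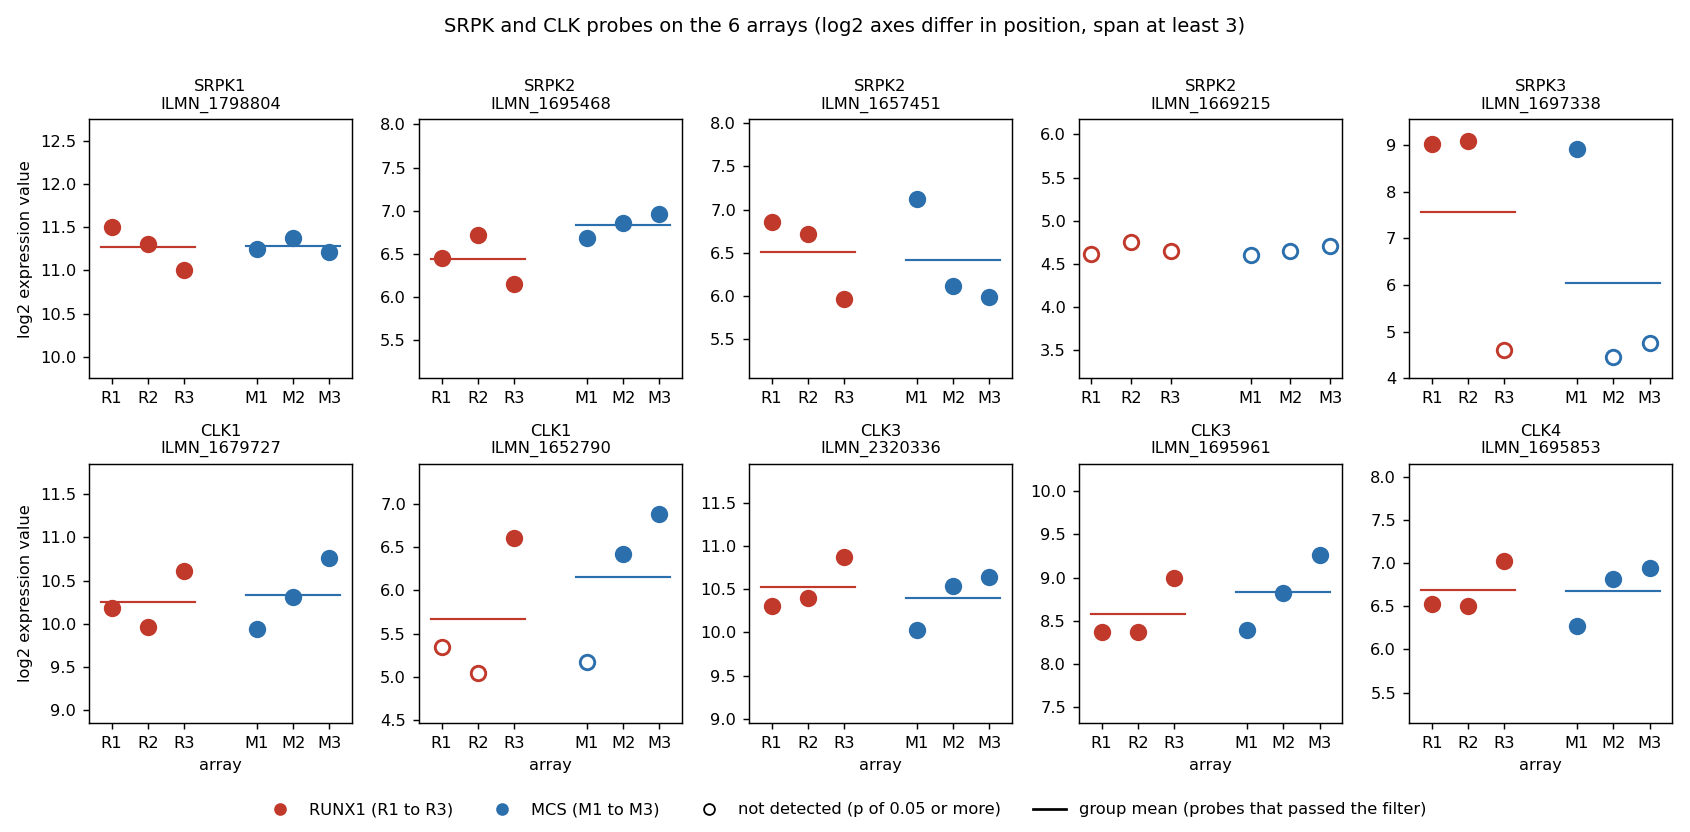
Each panel shows a probe of the SRPK and CLK genes, with the log2 expression value on the vertical axis and the 3 RUNX1 arrays (R1 to R3, red) left of the 3 MCS arrays (M1 to M3, blue); open circles were not detected and lines are group means. SRPK3 is near 9 on R1, R2 and M1 and under 5 on the other arrays, while every CLK probe is lower on R1, R2 and M1 than on the others.

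SRPK1, the broadly expressed founding kinase of the family, was detected on all 6 arrays and did not follow that order. Its probe ILMN_1798804 had expression values of 11.497, 11.304 and 11.002 on RUNX1 replicates 1 to 3, against 11.253, 11.371 and 11.208 on MCS replicates 1 to 3. Behind these stand intensities of 3039, 2365 and 1927 with RUNX1 and of 2726, 3051 and 2359 with MCS. The groups overlapped, with both the highest and the lowest value on RUNX1 arrays. The means were 11.27 ± 0.25 with RUNX1 and 11.28 ± 0.084 with MCS (SD, n = 3 each). The log2 difference, RUNX1 minus MCS, was -0.0093 (95% confidence interval -0.39 to 0.37, adjusted p = 1.00 from limma), which turned to 0.12 without RUNX1 replicate 3 and to 0.038 without MCS replicate 2. As a fold change the interval ran from 0.763 to 1.29.

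SRPK2, which acts beside SRPK1 in most tissues, was read by 3 probes that gave different pictures. ILMN_1695468 had expression values of 6.45, 6.72 and 6.15 on RUNX1 replicates 1 to 3, against 6.69, 6.85 and 6.97 on MCS replicates 1 to 3. The groups overlapped by 1 array, since RUNX1 replicate 2 lay just above MCS replicate 1. The log2 difference of -0.40 (SE 0.18, 95% confidence interval -0.82 to 0.020) had the smallest p-value among the kinases tested, with an adjusted p of 1.00 from limma and an exact permutation p of 0.2. It was -0.25 without RUNX1 replicate 3 and -0.33 to -0.54 without any other single array, -0.21 without background correction and -0.19 with the authors' processed values. ILMN_1657451 had 6.86, 6.72 and 5.96 with RUNX1, against 7.13, 6.12 and 5.99 with MCS. This probe was higher on RUNX1 replicates 1 and 2 and MCS replicate 1 than on the rest, as SRPK3 was, with a gap of 0.60. Its difference between the groups was 0.10 (95% confidence interval -0.73 to 0.93), and it turned negative without RUNX1 replicate 1 (-0.069), RUNX1 replicate 2 (-0.00011), MCS replicate 2 (-0.043) or MCS replicate 3 (-0.11). ILMN_1669215 was not detected on any array, with intensities of 82.3 to 94.8. The annotation gives 1 transcript accession, NM_182692, for the first and the third of these probes and NM_182691 for the second. No position within the transcripts was used here.

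CLK1, a nuclear kinase whose own RNA is held back by retained introns, was read by 2 probes that the annotation assigns to 1 accession, NM_004071. ILMN_1679727 had expression values of 10.18, 9.96 and 10.61 on RUNX1 replicates 1 to 3, against 9.95, 10.31 and 10.76 on MCS replicates 1 to 3. The groups overlapped throughout, with a log2 difference of -0.089 (95% confidence interval -0.68 to 0.50) that was 0.056 without RUNX1 replicate 2 and 0.12 without MCS replicate 3. The dimmer probe, ILMN_1652790, had 5.34, 5.04 and 6.61 with RUNX1, against 5.17, 6.42 and 6.89 with MCS. It was detected on RUNX1 replicate 3 and MCS replicates 2 and 3, the very arrays on which SRPK3 was not. Its intensities there were 165, 179 and 200.2, beside 120.5 and 109.8 on RUNX1 replicates 1 and 2 and 117.5 on MCS replicate 1. The log2 difference between the groups was -0.49 (SE 0.53, 95% confidence interval -1.73 to 0.74), the only interval among the kinases tested that reached beyond 2-fold. Without RUNX1 replicate 3 it was -0.97, without MCS replicate 1 it was -0.99, and without any other single array it was -0.37 to -0.13. This probe passed the filter on exactly 3 arrays and failed a stricter one (every array of a group detected at a p under 0.01), as SRPK3 did. Over the 6 arrays it spanned 1.84.

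CLK3, a kinase found in many tissues and at high levels in testis, was detected on all 6 arrays by both of its probes. ILMN_2320336 had expression values of 10.31, 10.40 and 10.87 on RUNX1 replicates 1 to 3, against 10.03, 10.54 and 10.64 on MCS replicates 1 to 3. ILMN_1695961 had 8.371, 8.370 and 8.997 with RUNX1, against 8.395, 8.824 and 9.263 with MCS. In both, RUNX1 replicate 3 was the highest RUNX1 array and MCS replicate 1 the lowest MCS array, and the groups overlapped. The log2 differences were 0.12 (95% confidence interval -0.40 to 0.65) and -0.25 (-0.87 to 0.38), so the probes of this gene differed in sign, each within its interval. The difference of ILMN_2320336 was -0.050 without RUNX1 replicate 3 and -0.064 without MCS replicate 1. That of ILMN_1695961 stayed negative without any single array, between -0.46 and -0.030.

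CLK4, the closest relative of CLK1, had expression values of 6.52, 6.50 and 7.03 on RUNX1 replicates 1 to 3, against 6.27, 6.82 and 6.95 on MCS replicates 1 to 3 (probe ILMN_1695853). The highest and the lowest array here were RUNX1 replicate 3 and MCS replicate 1. The means of 6.68 ± 0.30 with RUNX1 and 6.68 ± 0.36 with MCS (SD, n = 3 each) gave a log2 difference of 0.0050 (95% confidence interval -0.53 to 0.54). It was -0.17 without RUNX1 replicate 3 and -0.20 without MCS replicate 1. For CLK2, the probes at hand were 2 that are listed under its pseudogene CLK2P1, whose sequence resembles that of the gene, so what they bind is uncertain. ILMN_1676061 of CLK2P1 had 6.15, 6.07 and 4.82 with RUNX1, against 5.79, 5.93 and 6.56 with MCS, and was not detected on RUNX1 replicate 3. ILMN_2063106 was not detected on any array.

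Read over the transduction, no kinase probe passed the test. The 8 tested probes, SRPK3 not included, had 0 calls at an adjusted p under 0.05 by limma, and so did all 18867 probes (0% higher and 0% lower). At an unadjusted p under 0.05, 0 of the 8 passed, beside 2.92% of all probes. The adjusted p was 1.00 for each of the 8, and the 2-sided exact permutation p ran from 0.2 to 1, where 3 arrays against 3 allow no p under 0.1. In none of the 9 probes was every RUNX1 array above every MCS array (3.47% of all probes) or below (4.04% of all probes). The median log2 difference of the 8 was -0.049, beside 0.0020 for all probes. The intervals of 7 of the 8 probes lie within 2-fold in either direction, and the number of arrays limits the precision of each.

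**Figure D2:**
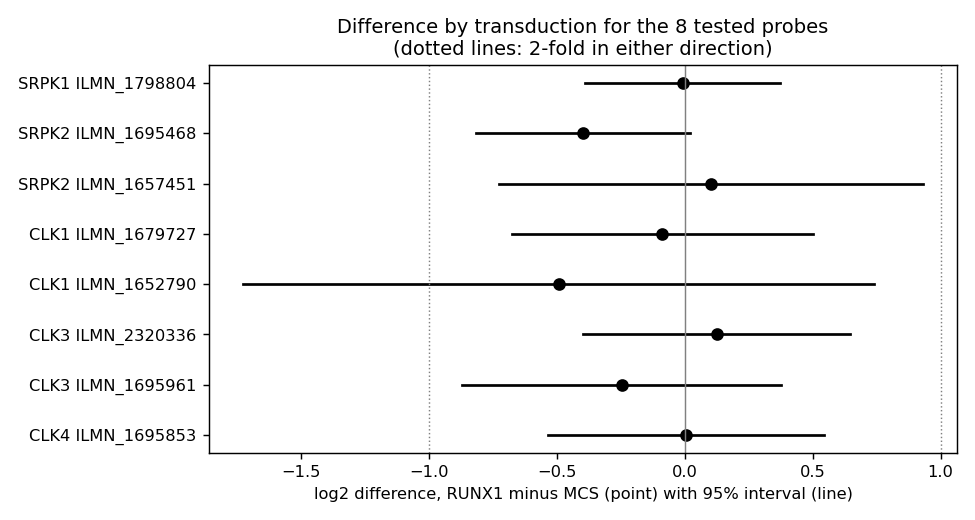
Points give the log2 difference, RUNX1 minus MCS, of the 8 tested probes (rows) and lines its 95% confidence interval from limma, with 3 arrays a group; dotted lines mark 2-fold. All intervals cross 0, and that of CLK1 ILMN_1652790, from -1.73 to 0.74, is the one that passes a dotted line.

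Read over the order of the arrays, the CLK probes lay together. All 5 probes of CLK1, CLK3 and CLK4 were lower on RUNX1 replicates 1 and 2 and MCS replicate 1 than on every other array, beside 19.5% of all probes. CLK1 ILMN_1652790 passed the filter only through the 3 arrays on which it is high, and without it the count is 4 of 4 probes. Of the 4 SRPK probes that passed the filter, 2 were higher on these arrays, SRPK3 and SRPK2 ILMN_1657451, beside 21.5% of all probes, and the other 2 overlapped. SRPK3 was chosen on this order, and without it the count is 1 of 3. The gap between the arrays was 4.16 for SRPK3, 1.07 for CLK1 ILMN_1652790, 0.43 for CLK3 ILMN_1695961 and 0.30 for CLK4. It was 0.14 for CLK3 ILMN_2320336 and 0.13 for CLK1 ILMN_1679727. For CLK1 ILMN_1652790, whose low values are not above background, it ran from 0.42 (the authors' processed values) to 1.16 over 7 other scalings. Over the 6 arrays the CLK probes spanned 0.76 to 1.84, beside the median of 0.59 over all probes. The counts of 5 and 2 also stood under 7 other scalings, the intensities as deposited and the authors' processed values among them. The order was taken from these same arrays, and pairs of the 5 probes share a gene, so the counts describe the arrays and are no test.

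The RS-domain proteins that these kinases phosphorylate also showed no call by transduction. Of 14 SR protein genes, 16 of 18 probes passed the filter, 0 were called higher and 0 lower, and the median log2 difference was -0.034, beside 0.0020 for all probes. TRA2A, a splicing activator of the SR-like kind, was the 1 of the 16 probes at an unadjusted p under 0.05, beside 2.92% of all probes. Its expression values were 8.91, 8.81 and 9.19 on RUNX1 replicates 1 to 3, against 9.24, 9.43 and 9.53 on MCS replicates 1 to 3. Every RUNX1 array lay below every MCS array, by a margin of 0.048 at the nearest pair. It was the 1 of the 16 probes to do so, beside 4.04% of all probes. The difference was -0.43 (SE 0.16), with an adjusted p of 1.00 from limma. The exact permutation p was 0.1, the smallest that 3 arrays against 3 allow. SRSF10, a splicing repressor that is dephosphorylated in heat shock, had -0.43 (SE 0.22) at ILMN_2354649 and -0.095 (SE 0.19) at its other probe that passed. SRSF11 had -0.56 (SE 0.32) and SRSF4 had -0.16 (SE 0.14). In order of the arrays, 3 of the 16 probes were higher on RUNX1 replicates 1 and 2 and MCS replicate 1. They were SRSF3, SRSF7 and SRSF8 (18.8%, near the 21.5% of all probes). Another 5 were lower (31.2%, beside 19.5% of all probes), of SRSF1, SRSF6, SRSF11 and the 2 SRSF10 probes that passed. The SRSF11 probe passed the filter only through the 3 arrays on which it is high.

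Among 20 other genes of RS-domain proteins, 36 of 41 probes passed, 0 were called in either direction and the median difference was -0.13. ILMN_1747099 of LUC7L2, a component of the U1 particle, had 7.17, 7.15 and 7.43 with RUNX1, against 6.63, 6.85 and 7.11 with MCS, with every RUNX1 array above every MCS array. ILMN_2069945 of SNRNP27, a protein of the tri-snRNP, did so too, at 10.66, 10.62 and 10.41 with RUNX1 and 10.31, 10.31 and 10.30 with MCS. The other SNRNP27 probe, ILMN_3239621, overlapped, at 11.07, 10.89 and 10.92 with RUNX1 and 10.82, 10.87 and 10.91 with MCS. The LUC7L2 probe and SNRNP27 ILMN_2069945 were the 2 of 36 probes with RUNX1 above MCS throughout, beside 3.47% of all probes. Their differences of 0.39 (SE 0.17) and 0.26 (SE 0.13) had an adjusted p of 1.00 by limma. ILMN_1772113 of U2AF1, the splice acceptor factor, had -0.28 (SE 0.15), and its other probe had 0.089 (SE 0.26). ILMN_1685327 of the speckle protein gene SON had 0.34 (SE 0.17), at intensities of 123 to 151, and was not detected on MCS replicate 2. The other SON probes had -0.32, -0.17, -0.37, -0.14 and 0.11. In order of the arrays, 16 of the 36 probes (44.4%, beside 19.5% of all probes) were lower on RUNX1 replicates 1 and 2 and MCS replicate 1, and 3 were higher (8.33%, beside 21.5%). Probes of SON, RNPS1, LUC7L, LUC7L3, RBM25, RBM39, SRRM1, SRRM2, PNN, U2AF2 and LBR were among the lower ones, as the CLK probes were.

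Probes of 1 gene did not always go the same way. Of 6 probes of SON, 4 were lower on RUNX1 replicates 1 and 2 and MCS replicate 1, and ILMN_2247664 was higher, with 10.95, 10.84 and 10.45 on RUNX1 replicates 1 to 3, against 10.73, 10.68 and 10.50 on MCS replicates 1 to 3. ILMN_1663090 of SON had 8.82, 8.65 and 9.83 with RUNX1, against 8.80, 9.56 and 10.04 with MCS. LBR, the nuclear envelope receptor that SRPK1 phosphorylates, also had a probe on each side, but by narrow gaps. The gap was 0.043 for the lower probe, ILMN_1810418, and 0.0091 for the higher probe, ILMN_1768969. A sum over the probes of such a gene would hide both.

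None of the probes of the other enzymes and carriers of the pathway was called in either direction by limma. For 18 other kinases that act on splicing factors, 17 of 34 probes, of 11 genes, passed, with a median difference of -0.056. ILMN_2400326 of DYRK3, which dissolves nuclear speckles, had -0.45 (SE 0.25), and the other DYRK3 probe that passed had 0.081 (SE 0.22). ILMN_2374244 of its relative DYRK2 had -0.25 (SE 0.19), beside -0.17 and 0.054 at its other probes that passed. CDK11A had -0.23 (SE 0.23), and the AKT1 probes that passed had 0.15 (SE 0.13) and -0.056 (SE 0.13). In order of the arrays 4 of these probes were higher on RUNX1 replicates 1 and 2 and MCS replicate 1 (CDK12, CDK13 and 2 of HIPK2) and 4 were lower (DYRK2 with 2 probes, DYRK3 and GSK3B), 23.5% each way, near the 21.5% and 19.5% of all probes. The phosphatases that undo these marks had 11 of 12 probes passing and a median difference of -0.023, with PPP1CB at 0.23 (SE 0.17) and PPM1G ILMN_1765522 at -0.23 (SE 0.22). In order of the arrays 5 of the 11 phosphatase probes (45.5%, beside 21.5% of all probes) were higher on RUNX1 replicates 1 and 2 and MCS replicate 1, those of PPP1CA, PPP1CB, PPP1R10, PPP2CA and PPP4C, and 2 were lower (18.2%, beside 19.5%). The gap of PPP2CA was 0.0052, a near tie. The carriers and chaperones of the kinases and SR proteins had 11 of 12 probes passing and a median of 0.071, with 2 probes higher on these arrays and 3 lower (18.2% and 27.3%). TNPO3, the import receptor of SR proteins, had 9.63, 9.53 and 9.70 with RUNX1, against 9.58, 9.86 and 10.07 with MCS, and the groups overlapped.

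**Figure D3:**
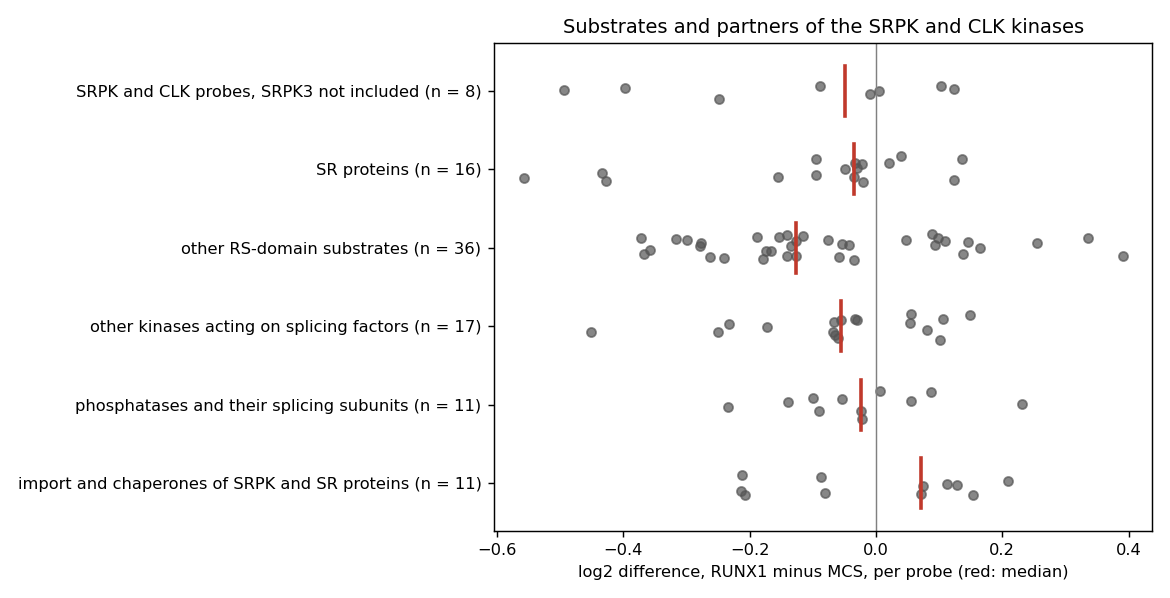
Each point is a probe that passed the filter, placed by its log2 difference, RUNX1 minus MCS, and each row is a list of the pathway with the SRPK and CLK probes on top; red lines are medians. The medians lie between -0.13 and 0.071 and no probe passed an adjusted p under 0.05.

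The muscle genes with which SRPK3 is usually expressed were mostly not detected on the arrays where it was high. Of 24 probes for 16 skeletal muscle genes, 4 passed the filter (CKM, MYH3, TNNT1 and MYL1), and DES, ACTA1, TTN and NEB were not detected on any array. The summed intensity of the 24 probes was 2330 to 2458 on RUNX1 arrays and 2292 to 2486 on MCS arrays. CKM, the muscle creatine kinase, was the 1 of these 4 that followed the order of the arrays (25% of them, near the 21.5% of all probes). It had 6.75, 6.98 and 4.54 on RUNX1 replicates 1 to 3, against 6.96, 4.98 and 4.79 on MCS replicates 1 to 3. CKM was detected on the same 3 arrays as SRPK3, and so passed the filter only through the arrays on which it is high. TNNT1 was detected on all 6 arrays. MYH3 was detected on RUNX1 replicates 1 and 3 and on all MCS arrays, and MYL1 on RUNX1 replicates 2 and 3 and MCS replicates 1 and 3. Of 11 probes for MEF2 and myogenic factors, 4 passed, of MEF2A, MEF2D, MYOG and MYOD1, none of them followed the order of the arrays, and the highest intensity was 285. MEF2D had 7.33, 7.68 and 7.65 with RUNX1, against 7.53, 7.41 and 7.41 with MCS. MYOD1 had 5.71, 5.59 and 5.69 with RUNX1, against 6.08, 5.38 and 5.16 with MCS. MEF2D was detected on all 6 arrays, and MYOD1 on the 3 RUNX1 arrays and on MCS replicate 1. MYOG was detected on RUNX1 replicate 2 and MCS replicates 2 and 3. Both MYOD1 and MYOG were dim, with intensities of 113 to 157 and 113 to 136, beside array medians of 112 to 118.

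The neighbours of SRPK3 on the X chromosome did not show its pattern. Of the 5 genes on either side, 6 had a probe listed under their symbol (BCAP31, PLXNB3, IDH3G, SSR4, PDZD4 and L1CAM), and their probes spanned 0.27 to 0.94 over the 6 arrays, where SRPK3 spanned 4.63. PLXNB3, the nearest measured gene on the side before SRPK3, had 4.86, 5.11 and 5.62 with RUNX1, against 5.07, 4.76 and 5.02 with MCS, and was detected on RUNX1 replicate 3 alone. IDH3G, the next gene after it, had 10.02, 10.07 and 9.93 with RUNX1 and 10.03, 9.85 and 10.12 with MCS at ILMN_1802706. PDZD4 was lower on RUNX1 replicates 1 and 2 and MCS replicate 1, at 6.74, 6.91 and 7.44 with RUNX1 and 6.50, 7.11 and 7.09 with MCS, which is opposite to SRPK3.

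**Figure D4:**
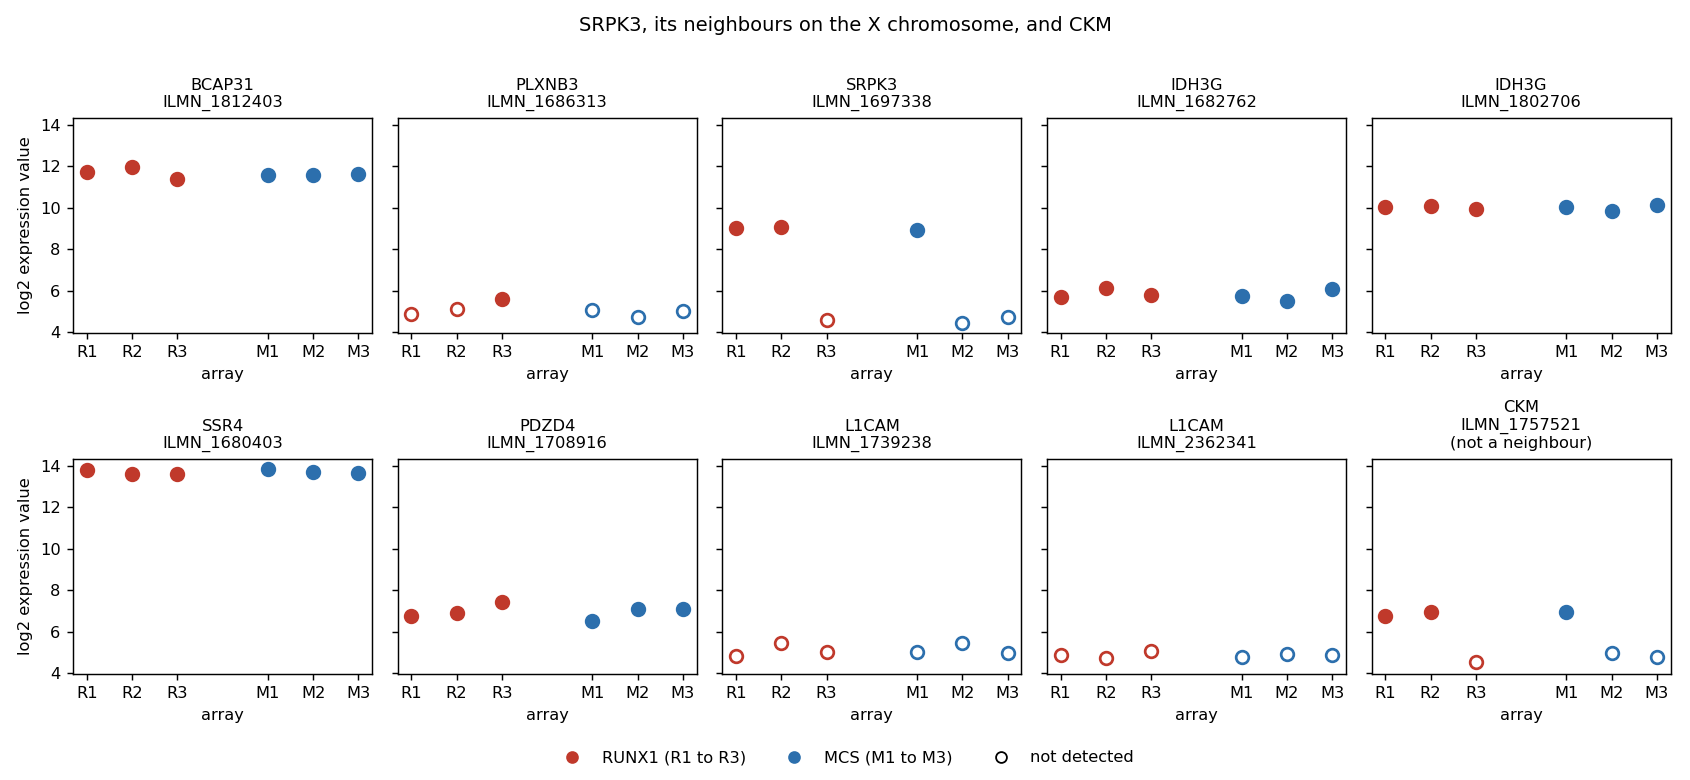
Panels run along the X chromosome from BCAP31 to L1CAM, with CKM from another chromosome last, each with the log2 expression value on the same vertical axis, RUNX1 arrays (red) left of MCS arrays (blue) and open circles for arrays without detection. Only the panels of SRPK3 and CKM have R1, R2 and M1 detected and the other arrays not.

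The genes whose profiles lay nearest to that of SRPK3 came from other families. Likeness was measured as the root mean square difference, on the log2 scale, between profiles over the 6 arrays centred on their means, among 14577 probes with 1 gene symbol, where a flat profile would be 2.20 away. The nearest were both probes of FOLR1, a folate receptor gene, at 0.178 (ILMN_2346339) and 0.288 (ILMN_1661733). SCARNA11, a small Cajal body RNA, was at 0.464, HES5, a target of Notch signalling, at 0.575 and SCARNA8 at 0.709. FOLR1 ILMN_2346339 had 8.76, 8.78 and 4.66 with RUNX1, against 8.99, 4.62 and 4.62 with MCS. It was detected on the same 3 arrays as SRPK3. With the sign turned, CRYAB, a small heat shock protein gene, was nearest at 0.508, and CKMT1B, MIR503HG, OSTN and CKMT1A followed at 1.09 to 1.28. CRYAB had 5.51, 4.86 and 9.24 with RUNX1, against 5.00, 8.40 and 9.37 with MCS, the mirror image of SRPK3. These genes were selected on the same 6 arrays, so their likeness is a description, and nothing about shared control follows from it.

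**Figure D5:**
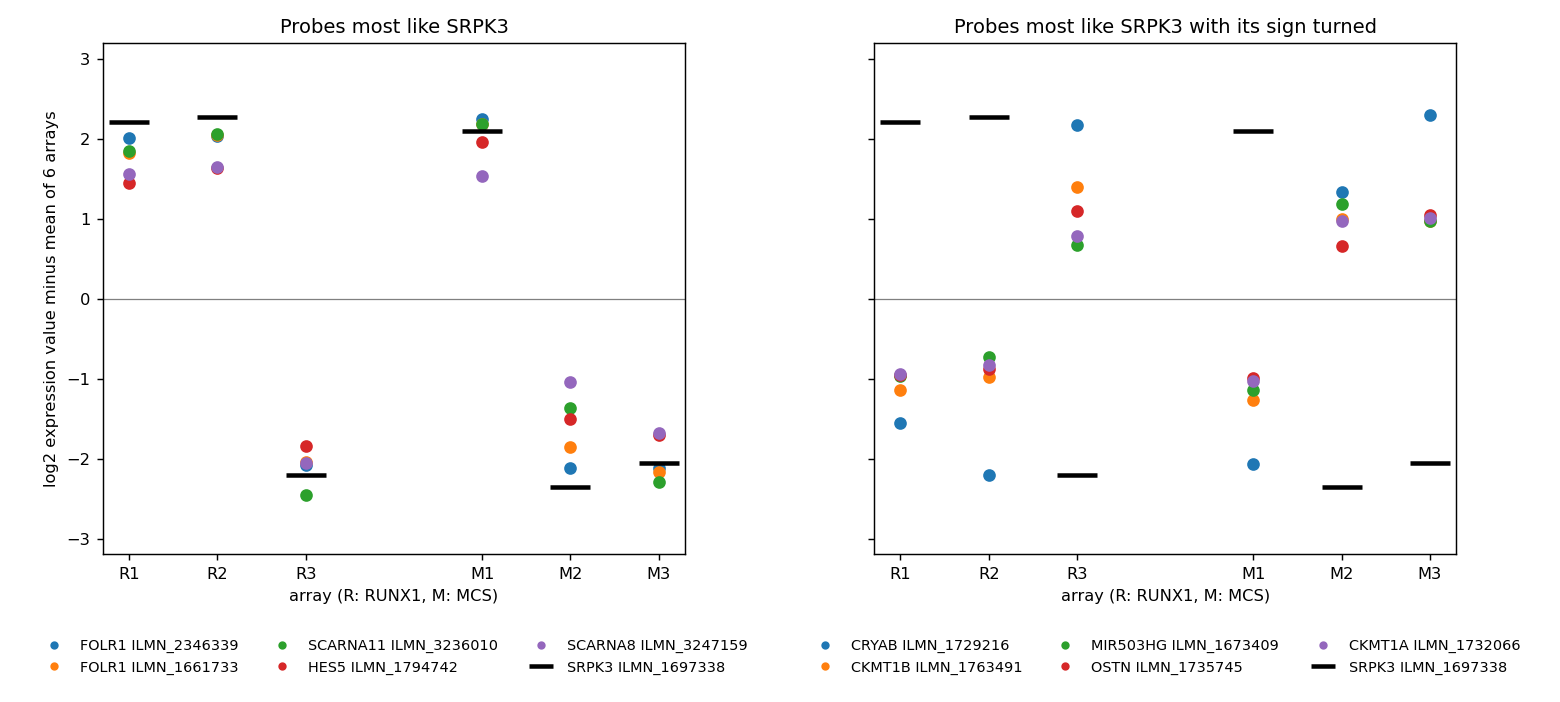
The vertical axis gives the log2 expression value minus its mean over the 6 arrays for SRPK3 (black bars) and for the 5 probes most like it (left) and most like it with the sign turned (right), with RUNX1 arrays left of MCS arrays. FOLR1 lies close to SRPK3 on every array, and CRYAB is low where SRPK3 is high.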

How the data were processed

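The authors hybridized cRNA of 3 RUNX1- and 3 MCS-transduced HEK-293T samples to Illumina HT-12 v4 BeadChips, one array each. They deposited, per probe and array, an intensity summarised by BeadStudio, neither background-corrected nor normalized, with a detection p-value (smallest nonzero value 1 in 770). They also deposited processed values made with lumi, treated here as log2 values, whose version, transformation and background step are not given in the sources used here. All 6 columns of both tables were matched to samples by name, and no pair of arrays was identical.

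The neqc function of limma 3.58.1 (R 4.3.3) turned the intensities into log2 expression values (offset 16, background from detection p-values, quantile normalization). Probes were named through the platform annotation (30113 of 47231 had 1 symbol, 8 several, 17110 none). All 10 kinase probes matched RefSeq genes. Probes with a detection p under 0.05 on at least 3 arrays (18867) were fitted each on its own by lmFit and eBayes on the transduction without covariates, followed by Benjamini-Hochberg adjustment over all of them. The moderated test had 7.41 degrees of freedom. Each kinase probe other than SRPK3 also had an exact permutation test over the 20 labelings. The test was checked on simulated data. The members, lists and tests were chosen with earlier results of these data known. The text names all kinase probes, up to 4 probes of a list with the smallest p, 5 neighbours on each side of SRPK3, and the 5 probes nearest to its profile and to that profile with the sign turned. LBR, SON probes other than ILMN_1685327, the genes listed by their order over the arrays, and further probes of genes named for 1 probe were named after their values were seen. The 3 arrays a group bound the precision, and p-values measure the spread between these samples. Promoters came from RefSeq (GRCh38.p14). Alternatives were other background corrections, normalizations, filters and tests, array weights, the replicate block, and leaving out each array.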

Additional observations from a re-analysis of the deposited data

How the results depend on the processing

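With 3 arrays a group, 0 probes were called under the main setting and under every alternative, for all probes, for the SRPK and CLK probes and for each list. The 372 values recomputed include counts, which have no sign, and the differences of SRPK3, which had no test. Of the 372, 17 turned sign and 355 did not. All 17 were log2 differences of tested kinase probes that were near 0 in the main fit. They were 5 of 18 alternatives for SRPK2 ILMN_1657451 and 4 of 18 for CLK4. SRPK1 and CLK3 ILMN_2320336 had 3 of 18 each, and CLK1 ILMN_1679727 had 2 of 18. No tested kinase probe changed its side of the threshold. Median scaling, which moved the median of all probes to -0.10, gave -0.0065 for SRPK2 ILMN_1657451 and -0.13 for CLK4. With array weights, SRPK1 had 0.011, CLK3 ILMN_2320336 had -0.12 and CLK4 had -0.25. The weights of RUNX1 replicate 3 (0.308) and MCS replicate 1 (0.347) were below those of the other 4 arrays, and the difference of SRPK3 was then 3.90. The smallest adjusted p of a kinase under them was 0.0738 by limma (CLK1 ILMN_1652790, -1.13), beside 1.00 in the main fit. The weights were estimated from these same arrays and are low where the labels cross the order of the arrays. The weighted values therefore lean towards that order. This CLK1 probe passed the filter only through the arrays on which it is high. The authors' processed values gave 0.91 for SRPK3. Leaving out single arrays gave -0.12 to 0.12 for SRPK1, -0.11 to 0.46 for SRPK2 ILMN_1657451, -0.29 to 0.12 for CLK1 ILMN_1679727, -0.064 to 0.24 for CLK3 ILMN_2320336 and -0.20 to 0.14 for CLK4, and the cause of these turns was not tested. The interval reached beyond 2-fold under 6 alternatives for SRPK2 ILMN_1657451, 4 for CLK3 ILMN_1695961 and 1 for SRPK2 ILMN_1695468. The stricter filter left no value for SRPK3 and CLK1 ILMN_1652790. Deviations of same-numbered samples had correlations of 0.505, -0.306 and 0.658. RUNX1 replicate 2 with MCS replicate 1 had 0.574 and RUNX1 replicate 3 with MCS replicate 1 had -0.694. These values follow the order of the arrays, so they cannot show whether the numbers pair the samples. The replicate block gave 0 calls over all probes and changed no call.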
